A study of Mus musculus with 4 samples.

Results

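The genes described here make, move and break down the monoamines, a family of small signalling molecules that includes dopamine, noradrenaline, serotonin and histamine. They are 8 of the 32285 genes counted in nuclei of the mouse hypothalamus, namely Ddc, Th, Slc6a3, Slc18a2, Hdc, Tph2, Maoa and Maob. They were selected on measured values of these same libraries, because Ddc was far higher in oligodendrocytes of mutant mice than in those of wild-type mice while its level in neurons was similar. The values of that contrast are therefore given as a description, with no test. Nuclei came from adult male mice on a C57/BL6NCr background, either wild type (WT) or TRα1+m, which carry on 1 of the pair of alleles of thyroid hormone receptor alpha the R384C change that lowers the affinity of the receptor for its hormone. The mutation is carried in every cell of these mice, so that no comparison here separates an effect within a cell type from one of the whole animal. The nuclei of 3 mice were pooled in each library, and each of 2 experimental repeats gave a WT and a TRα1+m library, so that n = 2 libraries per genotype. Levels are unique molecular identifiers (UMIs, each counting 1 captured RNA molecule) summed over the nuclei of a cluster and given per 1000000 UMIs of that cluster in that library (CPM). The capture primes from poly(A) stretches and is not scaled by gene length, so levels of different genes are not compared.

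As background, catecholamine synthesis starts with tyrosine hydroxylase, the product of Th, which converts tyrosine to L-DOPA, and aromatic L-amino acid decarboxylase, the product of Ddc, then turns L-DOPA into dopamine. Tph2 encodes the neuronal tryptophan hydroxylase, the entry step to serotonin, whose last step is again carried out by the Ddc product. Histamine is made in 1 step from histidine by the product of Hdc. Slc18a2 encodes the vesicular transporter that loads all these amines into synaptic vesicles, Slc6a3 the dopamine transporter of the cell surface, and Maoa and Maob the mitochondrial monoamine oxidases. In the hypothalamus, dopamine neurons lie in the arcuate, periventricular and other nuclei, and histamine neurons lie in the tuberomammillary nucleus. Mature oligodendrocytes form myelin and are not classed among the cells that make monoamines.

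The 4 libraries held 11976 to 16435 annotated nuclei with 47260127 to 59112785 UMIs, and pairs of libraries shared 44 to 64 cell barcodes, at most 0.443% of the smaller library. The nuclei labelled oligodendrocytes carried the 7 myelin genes fixed as their markers at 9805 to 24508 CPM in sum, and repeat 2 stood above repeat 1 in both genotypes, at 20554 against 10761 CPM in WT and 24508 against 9805 CPM in TRα1+m. The same nuclei held 1060 to 1692 CPM of 7 neuronal genes, with the lowest value in TRα1+m repeat 2. A cluster named Neurons_2 came almost wholly from 1 library (852 nuclei of TRα1+m repeat 2 against 1 to 6 in the others) and is left out of the comparisons.

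Ddc (ENSMUSG00000020182) lies on the minus strand of chromosome 11 at 11814101 to 11898144 of GRCm38 and spans 84044 bases with 10 annotated transcripts. A second gene, 1700042O10Rik (ENSMUSG00000086391), is annotated as antisense RNA on the plus strand at 11868123 to 11885321, wholly inside Ddc. None of its 4 exons overlaps a Ddc exon. Ddc has 2 promoters in the RefSeq table for GRCm38.p6, an upstream one, known as the non-neuronal promoter, and a downstream one, known as the neuronal promoter. Both are shown, with that of the antisense gene, because both genes stood higher in mutant oligodendrocytes. Each sequence gives 250 bases before the start and 50 from it, 5′ to 3′ on the strand of the gene. The capitals mark the letters TGACCT, the reverse complement of the core motif AGGTCA to which nuclear receptors including thyroid hormone receptors bind.
Ddc upstream, chr11:11898095-11898394, minus strand: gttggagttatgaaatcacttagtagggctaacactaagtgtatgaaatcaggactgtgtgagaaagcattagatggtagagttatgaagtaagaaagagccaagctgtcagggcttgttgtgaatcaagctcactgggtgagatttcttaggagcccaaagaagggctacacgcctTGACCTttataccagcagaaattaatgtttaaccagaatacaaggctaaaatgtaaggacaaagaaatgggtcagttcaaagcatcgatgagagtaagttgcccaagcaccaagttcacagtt
Ddc downstream, chr11:11890359-11890658, minus strand: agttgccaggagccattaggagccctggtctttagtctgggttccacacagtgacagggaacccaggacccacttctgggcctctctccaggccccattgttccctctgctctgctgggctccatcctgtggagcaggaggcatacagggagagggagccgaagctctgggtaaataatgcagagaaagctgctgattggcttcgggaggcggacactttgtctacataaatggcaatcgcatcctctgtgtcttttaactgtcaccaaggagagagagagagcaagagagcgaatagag
1700042O10Rik, chr11:11867873-11868172, plus strand: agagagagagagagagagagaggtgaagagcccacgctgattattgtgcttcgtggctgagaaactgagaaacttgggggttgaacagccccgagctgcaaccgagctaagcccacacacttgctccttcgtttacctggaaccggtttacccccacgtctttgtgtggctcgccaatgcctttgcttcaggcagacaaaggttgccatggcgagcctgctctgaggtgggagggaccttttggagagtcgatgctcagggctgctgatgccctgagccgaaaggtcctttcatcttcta

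The upstream Ddc promoter held 1 such motif, which begins 73 bases before the start, and the downstream promoter and that of the antisense gene held none. On both strands, AGGTCA was present in 16.3% of the 32851 promoters of 300 bases in the table, and a direct repeat of it with 4 bases between in 0.0152%. None of the Ddc, Th, Slc6a3, Slc18a2, Hdc, Tph2 and Maoa promoters, the 7 members with an entry in the table, held the direct repeat. The promoters of Th and Slc18a2 each held 1 cyclic AMP response element TGACGTCA, which was present in 1.79% of all promoters. In Th it begins 45 bases and in Slc18a2 4 bases before the start. Maob has no entry. These matches describe the letters in the windows and not binding.

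In oligodendrocytes, Ddc stood at 48.6 and 47.5 CPM in the WT libraries and at 234.3 and 258.6 CPM in the TRα1+m libraries. These levels rest on 126 and 129 UMIs in WT and on 634 and 653 UMIs in TRα1+m. Both mutant libraries lay far above both WT libraries. The WT libraries differed from each other by about 1 CPM, which is not read as the spread between pools of mice. Among nuclei with no UMI of 5 neuronal genes, described below, they stood at 45.0 and 68.3 CPM. The mutant level was 4.82 times the WT level in repeat 1 and 5.44 times in repeat 2, and the fitted log2 difference was 2.42. No such gap was seen in the neurons of cluster Neurons_1, where Ddc stood at 43.9 and 40.3 CPM in WT and at 41.3 and 44.0 CPM in TRα1+m, and the genotypes overlapped. The oligodendrocyte level was thus 1.11 and 1.18 times the neuronal level in the WT libraries, and 5.67 and 5.88 times that level in the mutant libraries. Oligodendrocytes made up 10.3% to 11.8% of the nuclei of each library. They held 6.05% and 5.84% of all Ddc UMIs in WT, and 24.1% and 27.9% in TRα1+m. Shares of UMIs also depend on depth, and oligodendrocyte nuclei held fewer UMIs each than neuronal nuclei. With the oligodendrocyte contrast fitted over all genes, 0.103% of 12630 genes were called (13 genes, 5 higher and 8 lower in TRα1+m, edgeR quasi-likelihood test at an adjusted p of 0.05), a share from which nothing is read about Ddc, since this contrast chose it. With 1 library left out the fitted log2 difference of Ddc ran from 2.33 to 2.51.

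**Figure D1:**
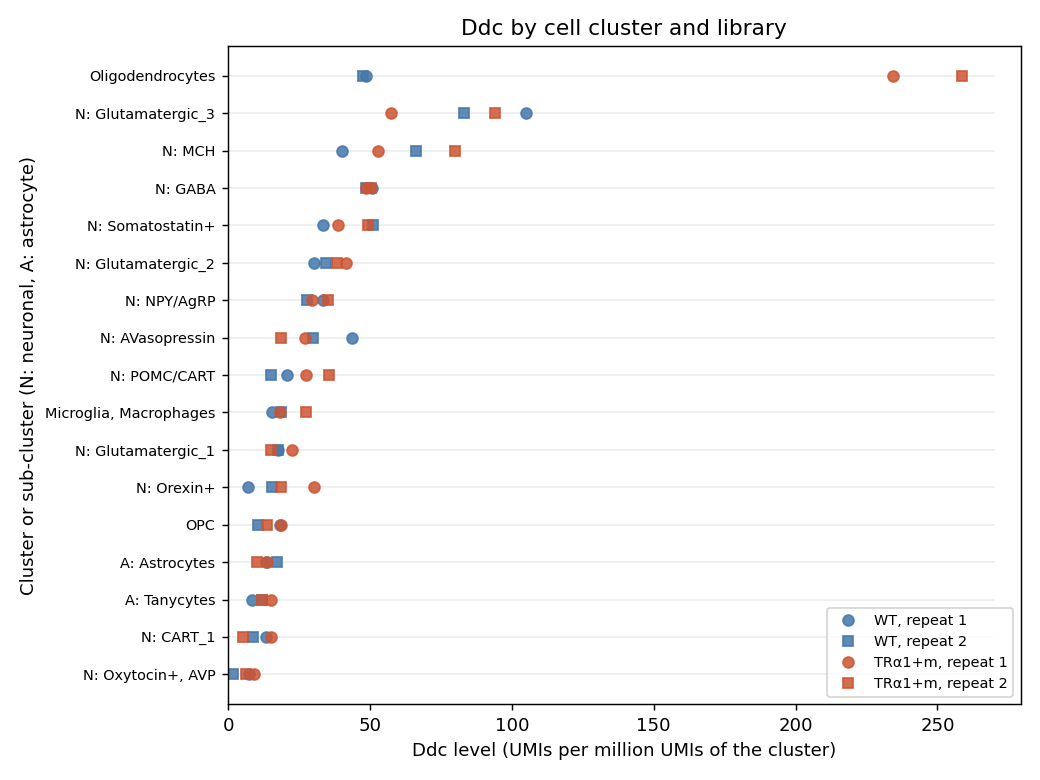
Ddc level in CPM (horizontal axis) in each of 17 clusters or sub-clusters that each library filled with 10 nuclei or more (vertical axis), with 1 point per library. The 2 TRα1+m points for oligodendrocytes, at 234.3 and 258.6 CPM, stand apart from the WT points at 48.6 and 47.5 CPM, while in each of the other 16 clusters the 4 points lie at 105.0 CPM or below.

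In the other glial cells no difference in Ddc between genotypes passed the test. Astrocytes held Ddc at 12.5 and 16.3 CPM in WT and 14.1 and 10.8 CPM in TRα1+m. In oligodendrocyte progenitor cells (OPCs), the proliferative precursors of oligodendrocytes, the levels were 18.5 and 10.6 CPM in WT and 18.6 and 13.7 CPM in TRα1+m. Microglia and macrophages held 15.7 and 18.6 CPM in WT and 18.3 and 27.6 CPM in TRα1+m, on 10 to 17 UMIs per library. The genotypes overlapped in these 3 cell types. The log2 difference (TRα1+m over WT) was −0.20 (SE 0.27) in astrocytes. It was 0.38 (SE 0.43) in microglia and 0.12 (SE 0.41) in OPCs, and the adjusted p of edgeR was above 0.99 in each. The share of genes called in the same fits was 0% of 14797 genes in astrocytes, 0% of 10451 in microglia and 0% of 11248 in OPCs. At an unadjusted p below 0.05 there were 255, 226 and 185 genes in the same order, and DESeq2 called 1, 0 and 1. With the repeat as a block the calls were 190, 35 and 64, with no member among them.

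In single nuclei the Ddc UMIs of the mutant oligodendrocytes were spread over many cells. At least 1 Ddc UMI was found in 6.95% of 1641 nuclei (exact 95% interval 5.76% to 8.29%) and 7.95% of 1396 nuclei (6.59% to 9.50%) in WT, and in 29.0% of 1685 (26.9% to 31.3%) and 34.6% of 1413 (32.1% to 37.2%) in TRα1+m. Intervals here and below cover counting error only. Nuclei with 2 or more Ddc UMIs numbered 11 and 17 in WT and 113 and 131 in TRα1+m, and the highest count in 1 nucleus was 3 in each WT library and 5 and 4 in the mutant libraries. The Ddc UMIs thus came from many nuclei with 1 or a few UMIs each, and not from a small set of nuclei with high counts. For comparison, astrocytes had a Ddc UMI in 2.02% to 3.73% of nuclei at a median of 1683 to 2212 UMIs per nucleus, against a median of 1493 to 1811.5 in oligodendrocytes. Both WT shares in oligodendrocytes lay above the highest of these astrocyte values, and the part of free RNA in either was not tested.

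**Figure D2:**
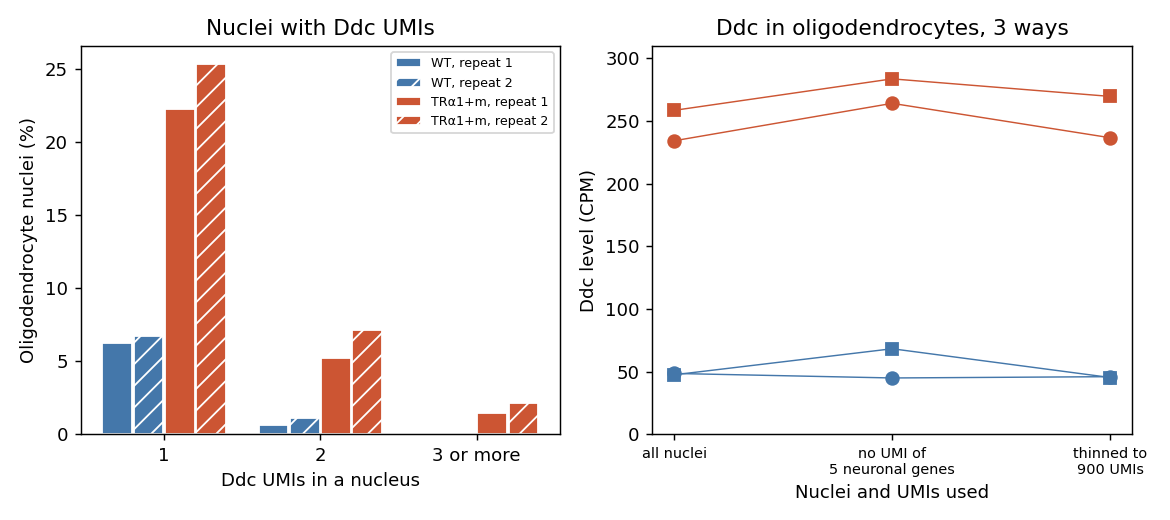
Left, share of oligodendrocyte nuclei in percent with 1, 2, or 3 or more Ddc UMIs, 1 bar per library. Right, Ddc level in CPM over all nuclei, over nuclei with no UMI of 5 neuronal genes, and as the mean per nucleus after thinning each nucleus to 900 UMIs. The mutant libraries stand above the WT libraries in each of the 3 ways of counting, which all draw on the same Ddc UMIs.

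The order of the libraries was kept at equal depth and among nuclei with no UMI of 5 neuronal genes. Both draw on the same Ddc UMIs that chose the gene, so they describe the contrast and are no further support. After each nucleus was thinned to 900 UMIs the level of Ddc was 46.0 and 45.4 CPM in WT and 236.7 and 269.7 CPM in TRα1+m. Nuclei without a UMI of Snap25, Syt1, Rbfox3, Stmn2 or Celf4, genes abundant in neurons, were 17.9% and 14.5% of oligodendrocyte nuclei in WT and 23.2% and 31.9% in TRα1+m. In these nuclei Ddc stood at 45.0 and 68.3 CPM in WT (293 and 202 nuclei) and at 264.2 and 283.7 CPM in TRα1+m (391 and 451 nuclei). The value of WT repeat 2 was higher there than over all its nuclei (47.5 CPM) and rests on 25 UMIs, and a nucleus with no UMI of these genes may still hold neuronal RNA. Oligodendrocyte nuclei with and without a Ddc UMI carried the myelin genes at like levels within each library, for instance at 10113 and 9667 CPM in TRα1+m repeat 1 and at 24482 and 24523 CPM in TRα1+m repeat 2. Opalin is a gene of mature myelinating cells. In the mutant libraries Ddc stood at 243.3 and 256.2 CPM in nuclei with an Opalin UMI and at 227.9 and 261.7 CPM in nuclei without one. Other myelin genes differed in direction. Ddc stood at 238.4 and 259.9 CPM with an Mbp UMI and 173.6 and 215.2 CPM without one, the latter on 30 and 16 Ddc UMIs. For Mog it stood at 219.7 and 255.6 CPM with a UMI and 255.2 and 273.3 CPM without one. Whether Ddc goes with the myelin state of a nucleus was not tested. The 7 neuronal genes summed to 1597 and 1026 CPM in the mutant oligodendrocytes with a Ddc UMI and to 1727 and 1080 CPM in those without.

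The antisense gene inside Ddc also stood higher in the mutant libraries. In oligodendrocytes 1700042O10Rik stood at 38.6 and 19.2 CPM in WT and at 265.7 and 134.6 CPM in TRα1+m, and its levels were also the higher of the pair in repeat 1 in both genotypes. Repeat 1 was above repeat 2 in neurons as well, at 53.1 and 47.5 CPM (WT and TRα1+m) against 21.1 and 24.7 CPM, a split by repeat that Ddc did not have. Of the mutant oligodendrocyte nuclei with a Ddc UMI, 42.5% and 24.7% also held an antisense UMI, compared with 27.1% and 18.0% of the nuclei without one. In WT oligodendrocytes the same shares were 13.2% and 8.11% with Ddc, and 4.72% and 2.96% without. Across the 17 clusters 1700042O10Rik was the gene whose level was most like that of Ddc, with Pearson's r = 0.90 among 11542 genes, followed by Gap43 at 0.76. The oligodendrocyte mean behind this r includes the mutant libraries of the contrast that chose Ddc, so r is a description only. In OPCs the antisense gene stood at 4.43 and 3.78 CPM in WT and 16.7 and 5.33 CPM in TRα1+m. In microglia it stood at 3.13 and 0 CPM in WT and 24.8 and 9.73 CPM in TRα1+m. Both rest on at most 27 UMIs in a library. Whether strand entered the counting is not stated in the sources used here, so reads of the 2 genes may not be wholly told apart. The genes on either side had ratios far below those of this pair. Of 14 genes within 1000000 bases of the Ddc start, 8 had at least 20 UMIs in oligodendrocytes, and beyond the overlapping pair their TRα1+m to WT ratios ran from 0.567 to 1.10. Grb10, an imprinted signalling adaptor upstream of Ddc, stood at 39.0 and 39.4 CPM in WT and 34.4 and 22.6 CPM in TRα1+m. Cobl, an actin nucleator further upstream, stood at 149.7 and 136.7 CPM in WT and 76.1 and 94.2 CPM in TRα1+m, below WT in both repeats.

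**Figure D3:**
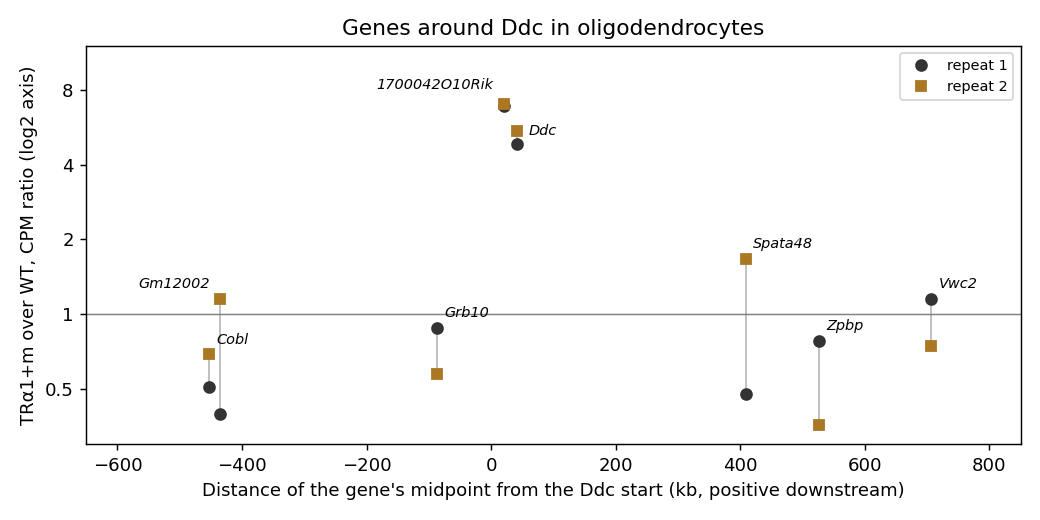
Ratio of TRα1+m to WT level in oligodendrocytes (log2 axis) for 8 genes around Ddc, each with 1 point per repeat, against the distance of the midpoint of the gene from the upstream Ddc start in kilobases. Ddc lies at 4.82 and 5.44 and the antisense gene beside it, above the points of the other 6 genes, of which Spata48 and Zpbp rest on 35 and 36 UMIs.

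Ddc in neurons was broad. It was highest in the sub-cluster labelled Glutamatergic Neurons_3, at 105.0 and 83.2 CPM in WT and 57.6 and 94.0 CPM in TRα1+m, followed by the sub-clusters labelled MCH Neurons and GABA Neurons with means of 59.8 ± 17.2 and 49.5 ± 1.06 CPM (SD, n = 4 libraries), and these neighbours overlapped in range. In 8 of the 12 neuronal sub-clusters the genotypes overlapped. Both mutant libraries lay above both WT libraries in the POMC/CART, Glutamatergic Neurons_2 and Orexin+ sub-clusters and below them in AVasopressin Neurons. With 2 libraries per genotype such separation often arises by chance, and the share of all genes that separate was not counted. The level of Ddc in neurons was part of the selection, so Ddc in these sub-clusters is described with no test. No difference between genotypes is read from these orders. In the POMC/CART sub-cluster, named after its values were seen, the mutant libraries held 27.4 and 35.5 CPM and the WT libraries 20.8 and 15.2 CPM, on 15 to 28 UMIs. Ddc was lowest in the Oxytocin+, AVP sub-cluster, at 1.93 to 8.99 CPM. Nuclei with 3 or more Ddc UMIs, a class set after its values were seen, numbered 143, 138, 105 and 113 (WT repeats 1 and 2, then TRα1+m repeats 1 and 2) and made up 0.989% to 1.66% of Neurons_1. Of these 499 nuclei, 46.3% lay in GABA Neurons and 32.3% in Glutamatergic Neurons_3. Between 67.1% and 84.8% of them held no UMI of Th, Slc6a3, Hdc or Tph2, so in most of them neither hydroxylase was detected at this depth. Slc18a2 was found in 202 of the 499.

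Nuclei with the profile of dopamine neurons were few. Th was low in every cluster and stood at 6.64 and 5.19 CPM in Neurons_1 of WT and at 4.70 and 3.68 CPM in TRα1+m. Its highest mean, 15.0 ± 4.63 CPM (SD, n = 4), was in the Oxytocin+, AVP sub-cluster, on 4 to 12 UMIs per library, and its second in Glutamatergic Neurons_3 at 16.0 and 9.10 CPM in WT and 5.64 and 10.5 CPM in TRα1+m, ranges that overlapped. Only 11, 8, 6 and 5 nuclei held 3 or more Th UMIs, 0.115% and 0.0914% of neurons in WT and 0.0565% and 0.0733% in TRα1+m. The difference of the mean shares, −0.0383 percentage points, gave p = 0.3333 in the exact two-sided permutation test, the smallest p that 2 against 2 libraries allow. With each nucleus thinned to 900 UMIs, the genotypes overlapped in the share with a Th UMI. That share was 0.565% and 0.411% in WT and 0.452% and 0.308% in TRα1+m (exact permutation p = 0.667). Of the 30 nuclei with 3 or more Th UMIs before thinning, 22 held exactly 3. These nuclei held Ddc at 646 ± 145 CPM (SD, n = 4) against 41.6 CPM in the other neurons, Slc18a2 at 463 ± 130 against 29.7 CPM and Slc6a3 at 449 ± 211 against 5.02 CPM. The antisense gene 1700042O10Rik was again among the 10 genes that set them apart in all 4 libraries, at 594 ± 256 against 35.9 CPM, together with Ret, the receptor of glial cell line-derived neurotrophic factor, at 203 ± 66.9 against 10.9 CPM. The rest of the 10 were 9030622O22Rik, Tll1, Bnc2, Sv2c and Nwd2. In astrocytes 0.369% to 0.977% of nuclei had a Th UMI, all with 2 UMIs or fewer.

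Slc6a3 was highest in Glutamatergic Neurons_3, at 31.1 and 43.1 CPM in WT and 10.1 and 38.6 CPM in TRα1+m, and TRα1+m repeat 1 stood below the other 3 libraries. Nuclei with 3 or more Slc6a3 UMIs, a class set after its values were seen, numbered 28 and 30 in WT and 5 and 22 in TRα1+m, and 66 of these 85 nuclei lay in Glutamatergic Neurons_3. Their share of neurons was 0.293% and 0.343% in WT and 0.0471% and 0.322% in TRα1+m, a difference of −0.133 percentage points (exact permutation p = 0.667). The mutant mean rests on 1 low library, and without it the mutant share lies between the WT shares. Ddc was found in 77 of the 85 nuclei, Slc18a2 in 79 and Th in 52. Nr4a2, a transcription factor of dopamine neurons, stood at 82.5 ± 25.8 CPM against 5.74 CPM in the other neurons. Slc17a6, the vesicular glutamate transporter for which glutamatergic neurons are named, stood at 28.4 ± 22.2 against 150.1 CPM. Across the 17 clusters the genes most like Slc6a3 were Lmx1a, Crhbp, Nr4a2, Lmx1b and Ret, with r from 0.81 to 0.83. Those most like Th were Foxp2, Arhgap15, Ebf3, Fkbp2 and Gm28807, with r from 0.66 to 0.79. All these correlations are over cluster means from the same 4 libraries and share their depth. They do not place genes in the same nuclei. Lmx1a stood at 46.7 ± 9.53 CPM in the 85 nuclei with 3 or more Slc6a3 UMIs and at 14.9 CPM in the other neurons. Its mean in Glutamatergic Neurons_3 as a whole was 134.0 CPM.

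**Figure D4:**
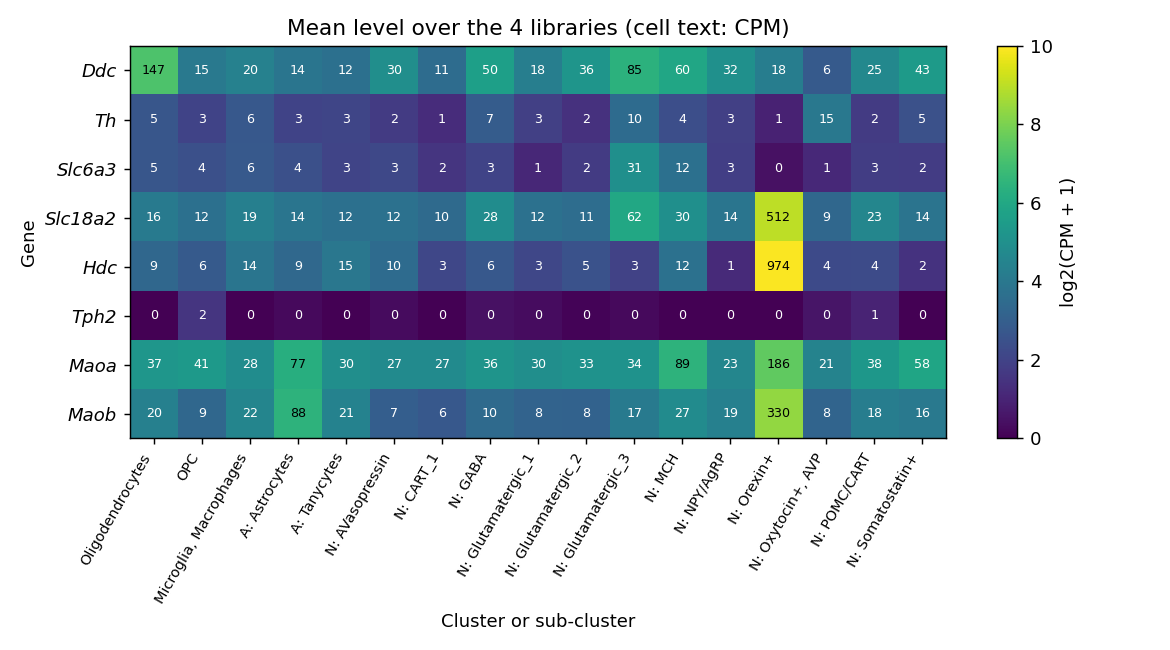
Mean level over the 4 libraries of each of the 8 genes (rows) in 17 clusters or sub-clusters (columns), coloured by log2(CPM + 1), with the mean CPM printed in each cell; colours compare clusters within a gene and not genes with each other. Hdc, Slc18a2, Maoa and Maob share 1 peak, in the sub-cluster labelled Orexin+, with means of 974, 512, 186 and 330 CPM.

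Hdc was concentrated in 1 small group of nuclei. The sub-cluster labelled Orexin+ Neurons (36, 80, 61 and 50 nuclei) held Hdc at 973.6 and 872.6 CPM in WT and at 1128 and 922.8 CPM in TRα1+m, against a mean of at most 14.8 CPM in any of the other 16 clusters, and its range overlapped with none of them. It held 47.7% to 65.1% of all Hdc UMIs with 0.246% to 0.600% of the nuclei. The data went against its label. Hcrt, the gene for orexin, was lower there than in the other 16 clusters, at 34.7 to 101.2 CPM, and was highest in Glutamatergic Neurons_2 at 440.0 to 1506 CPM. The same sub-cluster had the highest level of Slc18a2, at 390.8 and 739.0 CPM in WT and 325.6 and 594.4 CPM in TRα1+m, with repeat 2 above repeat 1 in both genotypes. Maoa stood there at 191.9 and 208.9 CPM in WT and 179.1 and 164.2 CPM in TRα1+m. Maob stood at 359.4 and 351.0 CPM in WT and 267.4 and 342.3 CPM in TRα1+m. Neither Ddc (6.98 to 30.2 CPM) nor Slc6a3 (0 to 1.42 CPM) was raised there.

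Nuclei with 3 or more Hdc UMIs numbered 39 and 84 in WT and 61 and 53 in TRα1+m, and 214 of the 237 lay in that sub-cluster. Their share of neurons was 0.408% and 0.960% in WT and 0.574% and 0.777% in TRα1+m, a difference of −0.00839 percentage points (exact permutation p = 1), less than the spread within either genotype. At 5 or more UMIs the difference was 0.0758 in the other direction. In these nuclei Slc18a2 was found in 222 of 237, Maob in 180, Maoa in 146, Ddc in 29 and Th in 3. Gad1 and Gad2 encode enzymes that make GABA. Gad1 stood at 191 ± 53.1 CPM (SD, n = 4) against 69.7 CPM in the other neurons. Gad2 went the other way, at 34.6 ± 14.1 against 149.0 CPM. So did Slc32a1, which loads GABA into vesicles, at 12.3 ± 12.3 against 76.9 CPM. The 10 genes that set the nuclei apart in every library were Wif1, a secreted WNT inhibitor, Slc16a10, an aromatic amino acid transporter, Npl, Kif6, Egflam, Maob, Prph, an intermediate filament, Slc26a4, Slc18a2 and Fam107b. Wif1 stood at 274.8 ± 61.1 against 2.05 CPM and Slc16a10 at 940 ± 187 against 17.9 CPM. Outside neurons, 1.77% to 2.53% of astrocytes had an Hdc UMI, with no astrocyte above 2. Across clusters Gm3289, Wif1, Gm14066, Zfp800 and Slc38a4 were most like Hdc (r from 0.89 to 0.92), and Slc26a4, Wnt2, Wif1, Bcap29 and Zfp800 most like Slc18a2 (r from 0.89 to 0.92).

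**Figure D5:**
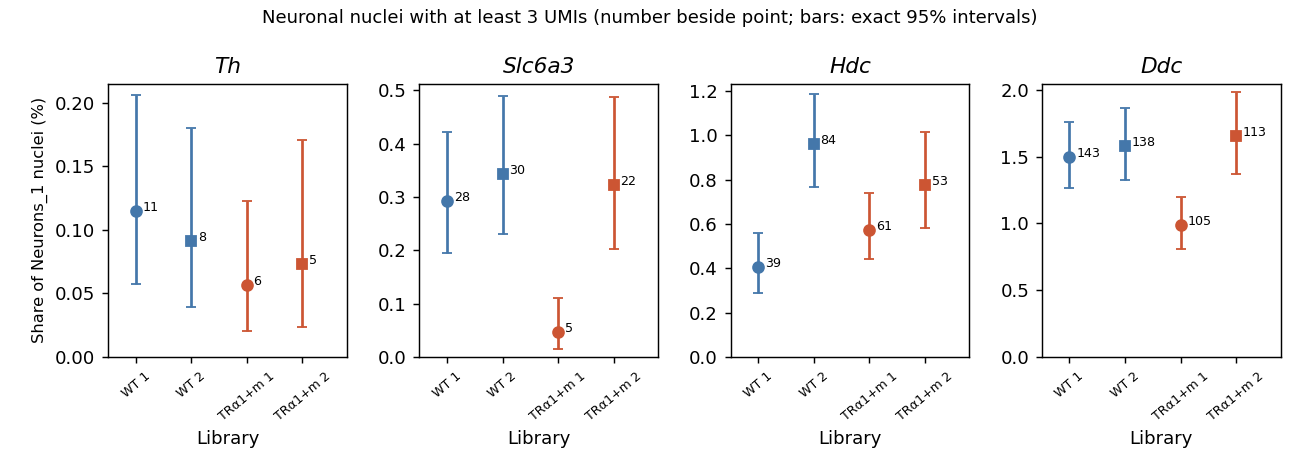
Share of Neurons_1 nuclei in percent with 3 or more UMIs of Th, Slc6a3, Hdc or Ddc in each library (horizontal axis), with exact 95% binomial intervals and the number of nuclei beside each point. The vertical scale differs between panels. TRα1+m repeat 1 has 5 nuclei for Slc6a3 against 22 to 30 in the other libraries.

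Both oxidases were broad outside this sub-cluster. Among glia they were highest in astrocytes, where monoamine oxidase B is known to be abundant. Maob stood there at 74.7 and 78.3 CPM in WT and 73.8 and 76.5 CPM in TRα1+m, and Maoa at 66.6 and 70.1 CPM in WT and 77.0 and 61.0 CPM in TRα1+m. Between 32.1% and 36.6% of all Maob UMIs came from astrocytes, which were 16.6% to 17.4% of nuclei. Neurons_1 held 70.6% to 76.8% of all Maoa UMIs with 57.0% to 65.7% of the nuclei. Oligodendrocytes held 3.65% to 5.31% of them with 10.3% to 11.8% of the nuclei. These shares depend on depth, with medians of 3797 to 5227 UMIs per nucleus in Neurons_1 and 1493 to 1811.5 in oligodendrocytes. As a level, Maoa was similar in the 2 cell types. Its means (WT, then TRα1+m) were 37.0 and 36.8 CPM in Neurons_1 and 39.9 and 34.1 CPM in oligodendrocytes. Across clusters Maob was the gene most like Maoa (r = 0.83), and Maoa ranked 3 for Maob. The other genes near Maoa were Clic6, Wif1, Prph and Slc35d3, and those near Maob were Kansl1l, Prph, Fam107b and Hmgcs1. The astrocyte log2 differences were 0.03 (SE 0.17) for Maoa and −0.01 (SE 0.14) for Maob, and edgeR gave adjusted p = 1.00 for both.

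Tph2 was close to absent. It had 9 to 12 UMIs per library in all of Neurons_1 (0.205 to 0.337 CPM), each in a different nucleus, and none in oligodendrocytes or microglia. OPCs held 2 and 8 UMIs in WT, each in its own nucleus, and 0 in both TRα1+m libraries, where a count of 0 allows up to 3 UMIs. The serotonin transporter Slc6a4 and the transcription factor Fev, defining genes of serotonin neurons, were at 0 in oligodendrocytes and in the Orexin+ sub-cluster. No nucleus with 3 or more UMIs of Hdc or Th held Tph2. Only 0.0941% to 0.176% of all Neurons_1 nuclei held it, so nothing is read from this about these small classes.

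In Neurons_1 all 8 members passed the filter on low counts, and 0% of 19926 genes were called between genotypes (edgeR; 193 genes at an unadjusted p below 0.05, and 1 called by DESeq2; 2 with the repeat as a block). The fitted log2 differences of the members other than Ddc ran from −0.87 (Slc6a3, SE 0.50) to 0.40 (Tph2, SE 0.44). Th stood at −0.56 (SE 0.27), with both mutant libraries below both WT libraries, and its edgeR adjusted p was 1.00. Slc18a2 at −0.27 (SE 0.34), Maoa at −0.07 (SE 0.17), Hdc at −0.02 (SE 0.27) and Maob at 0.13 (SE 0.19) lay nearer to 0. In 12 sub-clusters of neurons, each with 10 nuclei or more per library, 0.00367% of 136098 gene tests were called. Leaving aside Ddc, which is described with no test in neurons, no member was among them. The largest member difference was that of Slc6a3 in the sub-cluster labelled MCH Neurons, at 5.82 and 34.0 CPM in WT and 0.872 and 6.75 CPM in TRα1+m. Its log2 difference was −2.73 (SE 0.99) with an edgeR adjusted p of 1.00, and −2.44 with an edgeR adjusted p of 0.00163 with the repeat as a block. Other fits that called it were that with no filter on low counts (−2.76, edgeR adjusted p of 0.0319) and that without WT repeat 1 (−3.48, edgeR adjusted p of 6.41e-05). The size rests on WT repeat 2, where 36 of the 61 UMIs came from 5 nuclei, and without that library the log2 difference was −1.003 and was not called. Without 1 or the other mutant library it was −1.61 and −4.40, not called in either case. In the same sub-cluster 5 endothelial and mural genes summed to 652.9 and 2155 CPM in WT and 1627 and 3235 CPM in TRα1+m, and 5 of 5 were higher in TRα1+m in both repeats. The part of these 5 genes in the Slc6a3 difference was not tested. The share of all genes higher in TRα1+m in both repeats was not counted, so nothing is read from this count. The nuclei of this sub-cluster also differed in depth. Their median was 3840 UMIs in TRα1+m repeat 1, 1499 in TRα1+m repeat 2, and 1855 and 1481 in WT. Of the 8 members, 7 could be tested in astrocytes, 5 in microglia and 4 in OPCs. The largest log2 differences of members were −1.23 (SE 0.62) for Slc6a3 in astrocytes and −0.77 (SE 0.51) for Hdc in microglia. That of Slc18a2 was −0.63 (SE 0.27) in astrocytes, −0.36 (SE 0.42) in microglia and −0.21 (SE 0.48) in OPCs. None of these had an edgeR adjusted p below 0.99. In oligodendrocytes members are described with no test. Slc18a2 stood there at 17.0 and 25.1 CPM in WT and 11.8 and 11.1 CPM in TRα1+m. Th stood there at 6.94 and 8.48 CPM in WT and 3.70 and 2.77 CPM in TRα1+m. These Th levels rest on 18 and 23 nuclei with a UMI in WT and 9 and 6 in TRα1+m. Both genes went the opposite way to Ddc. The log2 differences of Maob (−0.43), Hdc (−0.33) and Maoa (−0.16) were negative too. That of Slc6a3 was −1.22, but its genotypes overlapped, at 7.62 ± 6.95 CPM in WT and 3.10 ± 1.77 CPM in TRα1+m (SD, n = 2 libraries). With a library left out it ran from −1.97 to 0.23. The share of all genes that separate by genotype, or that stand lower in TRα1+m, was not counted, and the part of free neuronal RNA was not tested.

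The wider monoamine pathway, 81 genes in 11 roles, is given for context. For each role the gene with the highest mean CPM in any of the 5 cell types is named, which does not rank expression between genes. The list includes 6 chromosome neighbours of Ddc. The fits could test 63 of them in Neurons_1, 38 in astrocytes, 31 in oligodendrocytes and 22 each in microglia and OPCs, and edgeR called 0 in either direction in each of the 5, beside 0.103% of all genes called in oligodendrocytes and 0% in the other 4. At an unadjusted p below 0.05 there were 3 in oligodendrocytes, where 672 of all 12630 genes passed, 2 in Neurons_1, where 193 of 19926 passed, and 0 in the other 3. Against these shares the counts are no result about the pathway. Of the genes for the tetrahydrobiopterin cofactor of the hydroxylases, Qdpr stood in oligodendrocytes at 186.3 and 190.9 CPM in WT and 145.2 and 152.5 CPM in TRα1+m. Gch1, its rate-limiting enzyme, had 5 and 8 UMIs in WT oligodendrocytes and 3 and 1 in TRα1+m. Of the breakdown enzymes, Aldh1a1 reached 239.6 to 299.8 CPM in astrocytes. Of the transporters, Slc3a2, a subunit of the carrier for large amino acids including L-DOPA, reached 138.3 to 316.4 CPM in astrocytes with repeat 2 above repeat 1. Of the other synthesis genes, Aanat stood at 3.94 to 5.57 CPM in neurons. Among receptors, Htr2c stood at 388.8 to 483.4 CPM and Drd2 at 7.30 to 10.5 CPM in neurons, Hrh1 at 61.1 to 90.1 CPM in astrocytes and Adra1a at 66.6 to 90.5 CPM in OPCs. Taar1 was at 0 in all 5 cell types. Of the transcription factors, Gata2 stood at 10.4 to 22.7 CPM in microglia, and of the chromosome neighbours of Ddc, Ikzf1 stood at 342.6 to 490.2 CPM in microglia. The genotypes overlapped for both.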

How the data were processed

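Single nuclei of the hypothalamus were measured in 4 libraries, 2 per genotype. The deposited count matrices hold UMI counts per gene and nucleus, which the authors made with Cell Ranger 5.0.1 on mm10 with intronic reads included, and the deposited annotation gives the clusters. The authors kept nuclei with at least 900 counts, a minimum of features and at most 5% mitochondrial counts and removed doublets by score. Of 68190 barcodes, the 56386 annotated nuclei were used. Counts were summed per library and cluster and tested with edgeR 4.0.16 (filterByExpr, TMM, robust quasi-likelihood) in R 4.3.3, with Benjamini-Hochberg adjustment within a cluster at 0.05. The SE of a log2 difference is its absolute value divided by the square root of the F statistic of that test. DESeq2 1.42.0, other scaling, no filter, the repeat as a block and each library left out were the alternatives. The repeats pair the libraries by the study's methods, and the repeat differences of WT and TRα1+m correlated across genes at 0.393 to 0.685. Shares of nuclei were compared with exact permutation tests. The genes named beside the members were the 5 with the highest Pearson's r across clusters and the 10 with the largest smallest ratio in a class. For each pathway role it was the gene with the highest mean CPM in any main cluster. The members and lists were chosen with earlier results of these data known. P-values measure the spread between libraries of pooled mice within a genotype. The main fit has no term for the repeat, so this spread includes the repeat difference, which WT and TRα1+m partly shared. A high adjusted p in that fit is therefore not read as absence of a difference.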

Additional observations from a re-analysis of the deposited data

Results flagged for a closer look

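Ddc was also present in a small mixed cluster labelled Non-neuronal cells that enters no comparison of the report, above its level in the control libraries. Its mean was 129.975 CPM over the TRα1+m libraries, from 128.1 CPM (31 UMIs in 80 nuclei) and 131.9 CPM (15 UMIs in 34 nuclei). The WT libraries held 27.2 CPM (5 UMIs in 57 nuclei) and 6.81 CPM (1 UMI in 36 nuclei). The antisense gene 1700042O10Rik stood at 21.8 and 0 CPM in WT and at 206.6 and 52.7 CPM in TRα1+m in the same cluster. The authors report marker genes of both astrocytes and oligodendrocytes in this cluster, with a higher distribution of doublet scores, and left it out of further work. The part that oligodendrocyte RNA has in the Ddc and antisense values of this cluster was not tested.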

How the results depend on the processing

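With 2 libraries per genotype the counts of called genes depended on the setting, and the cause was not tested. For oligodendrocytes (13 called) they were 75 with DESeq2, 120 with no filter on low counts, 550 with the replicate block and 0 to 196 with a library left out. For Neurons_1 (0 called) DESeq2 gave 1 and the block 2. For astrocytes (0 called) they were 1 with DESeq2, 1 with no filter and 190 with the block. For OPCs (0 called) they were 1, 11 and 64, and 1 to 8 with a library left out. For microglia (0 called) no filter gave 9, the block 35 and a library left out 0 to 72. For the 12 sub-clusters (5 called), where DESeq2 was not run, no filter gave 103, the block 572 and a library left out 36 to 116. The Ddc difference in oligodendrocytes, 198 CPM, was 217 CPM in nuclei without neuronal UMIs and 186 to 211 CPM with a library left out. Its log2 difference was 2.33 to 2.51 under 9 alternatives, given as a description since this contrast chose the gene. The Hdc share difference was 0.0758 percentage points at 5 or more UMIs and −0.285 to 0.268 with a library left out, and that for 3 or more Ddc UMIs was 0.0858 for 1 or more UMIs after thinning to 900. With the block the log2 difference was 0.029 for Th in astrocytes and 0.0093 for Hdc in Neurons_1, opposite in sign to the fit without it, and the block changed no call of a member other than Slc6a3 in MCH Neurons.

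With a library left out, uncalled log2 differences changed sign within these ranges. In Neurons_1 they were −0.12 to 0.032 for Ddc, −0.62 to 0.15 for Slc18a2, −0.31 to 0.34 for Hdc and −0.21 to 0.058 for Maoa. In astrocytes they were −0.46 to 0.67 for Th, −0.28 to 0.27 for Hdc, −0.15 to 0.18 for Maoa and −0.047 to 0.0100 for Maob. In OPCs they were −0.26 to 0.62 for Ddc, −0.69 to 0.52 for Slc18a2, −0.27 to 0.13 for Maoa and −0.62 to 0.52 for Maob. In microglia they were −0.15 to 0.46 for Maoa and −0.48 to 0.75 for Maob, and in oligodendrocytes −1.97 to 0.23 for Slc6a3.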

Other observations

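In the cluster Neurons_2, 852 nuclei of TRα1+m repeat 2, Th had 41 UMIs (14.6 CPM), Ddc 24 UMIs (8.53 CPM), Slc18a2 33 UMIs (11.7 CPM) and Maoa 85 UMIs (30.2 CPM). The cluster held 20.7% of all Th UMIs of that library with 7.11% of its nuclei.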
